A study of Mus musculus with 30 samples.

Results

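Dox withdrawal was compared between 2 rescue clones of checkpoint kinases, Bub1b_R and Chek1_R, and 2 rescue clones of phosphatase genes, Ppm1g_R and Ppp2r1b_R. For each probe the change in a clone was the mean log2 intensity without Dox minus that with Dox. The value described is the mean change of both kinase clones minus the mean change of both phosphatase clones, here called the class difference. It used 24 of the 30 arrays, and the 6 arrays of the control clone Ctrl_R stood beside it and cancelled from it. The study lists Ctrl_R as a clone from earlier work, and the labels do not say whether its arrays were run together with the others. A positive class difference can mean a larger rise in the kinase clones or a larger fall in the phosphatase clones, so the change of each clone is given with it.

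All clones were derived from Ainv15, a mouse embryonic stem cell (ESC) line that expresses the reverse tetracycline transactivator rtTA. Each of the 4 clones carried an shRNA against 1 gene together with a lentiviral copy of that gene's cDNA, driven by a tetracycline-response element and followed by eGFP, which the shRNA cannot target. The +Dox groups were kept in 1 µg/ml doxycycline with serum and LIF, so that the cDNA was induced, and the -Dox groups had Dox removed for 5 days. The clones had been kept on mouse embryonic fibroblasts and, per the study's methods, went through the experiment without feeder cells. There were 3 arrays per clone and condition. Neither the labels nor the methods say whether these 3 came from separate cultures or from separate clones of the same gene, so the p-values below measure only the spread between these arrays. With 2 targeted genes on each side, a difference between the classes and a difference between these particular rescue lines cannot be told apart.

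Bub1b encodes BubR1, a component of the spindle assembly checkpoint that holds back anaphase until chromosomes are attached. Chek1 encodes the kinase that slows the cell cycle when replication forks stall or DNA is damaged. Ppm1g encodes a metal-dependent serine/threonine phosphatase of the PPM family, and Ppp2r1b encodes a scaffold subunit of protein phosphatase 2A (PP2A) rather than its catalytic subunit. ESCs that leave self-renewal can enter a program resembling the primitive streak, the embryonic site where mesoderm and definitive endoderm arise, marked by the T-box gene T (Brachyury) and the homeobox genes Mixl1, Evx1 and Gsc. Wnt, Nodal and FGF signals are known to drive that program.

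The sequences that define the 4 clones are the 21-base targets of their shRNAs, written 5′ to 3′ as the construct list gives them. The Bub1b and Chek1 rescue cDNAs lack the target, as the study's methods state, while the Ppm1g and Ppp2r1b cDNAs carry silent changes in it. Capitals mark the bases that differ between the Ppm1g target and its rescue cDNA, and no changed bases are marked for Ppp2r1b.
Bub1b: gcacacttagacacatcagca
Chek1: cccatgtagtagtatcacttt
Ppm1g: gccttgtaCtgTgcCaaatat
Ppm1g rescue: gccttgtaTtgCgcTaaatat
Ppp2r1b: gctccgtctcaacagtattaa

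The targeted genes were read first, since they check the labels. Levels are log2 intensities after background correction and quantile normalization, and are not compared between probes. Ppm1g read 9.76, 9.76 and 9.82 on the +Dox arrays of Ppm1g_R and 8.61, 8.40 and 8.59 without Dox, a fall of 1.25 that left no overlap. Bub1b went from 9.82, 9.84 and 9.87 to 9.72, 9.64 and 9.75 in Bub1b_R, a change of -0.14, and Ppp2r1b from 6.23, 6.20 and 5.84 to 6.16, 6.49 and 6.21 in Ppp2r1b_R, a change of 0.20, with overlapping conditions. Chek1 went against its label. On the arrays labelled Chek1_R it read 5.32, 5.20 and 5.40 with Dox, not above background on any of them, and 6.08, 6.24 and 5.72 without Dox, at least 1.35-fold higher, while every other array of the series lay between 6.46 and 7.46. A second Chek1 probe changed by 0.51 in the same clone. Where each probe lies relative to the rescue cDNA and the shRNA target is not given in the sources used here, so a probe may read the endogenous transcript, the rescue transcript or both. Every statement below on Chek1_R concerns the arrays labelled so. Were their conditions exchanged, each Chek1_R change would turn its sign, whereas the values given with Bub1b_R as the only kinase clone do not use these arrays.

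Arrays fell into sets with different background. The 12 arrays of Bub1b_R and Ctrl_R had between 12913 and 13685 probes detected (detection p under 0.05), and the 18 arrays of Chek1_R, Ppm1g_R and Ppp2r1b_R between 11733 and 12898. The lowest detected signal was 12.9 to 20.9 in the first set and 27.8 to 58.1 in the other. Each clone's change lies within 1 set, but the kinase class has a clone in each. With quantiles taken within each set 293 probes were called, 285 of the 297 described below among them. Replicate arrays correlated at 0.990 or above. All 8 ESC markers were detected on all 3 arrays of every group. Their summed signal, of deposited intensities before normalization, was lowest in Ppp2r1b_R (37485 to 54345 against 57536 to 90298 elsewhere). Dppa5 alone read 24218 to 53927 over the 30 arrays, and the next brightest, Nanog, 3403 to 14233. The sum therefore leans on Dppa5 and on the scale of each array, and does not measure ESC content. Of 29 fibroblast genes on the array, 15 to 18 were detected on all 3 arrays of a group. Col1a1, Col5a1, Col6a1, Thy1, Acta2 and Mmp2 were among those detected on all 30 arrays, whereas Col1a2, Col5a2, Lum, Postn, Cnn1 and S100a4 were detected on none. The summed signal of the fibroblast genes ranged from 16800 to 24254 in the +Dox groups of the 4 clones and from 17320 to 30954 without Dox. In Ctrl_R it was lower, 8568 to 11217 with Dox and 9423 to 11726 without. These sums too are of deposited intensities, compared here across array sets. The brightest members were Acta2 (2337 to 10911) and Ctgf (2431 to 9626), so the sums do not measure feeder content.

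Across 15151 probes tested, 297 had a class difference of at least 1.5-fold at an adjusted p under 0.05 (limma with Benjamini-Hochberg adjustment), or 1.96% of those tested, and they named 272 genes. Of these, 195 were higher in the kinase clones (1.29%) and 102 lower (0.673%), so 65.7% of the calls were positive. That split moved with the settings. It was 52.6% of 344 calls without background correction and 78.6% of 345 calls with median scaling in place of quantiles. With no fold limit it turned, to 708 higher and 871 lower, as it did with Ppp2r1b_R as the only phosphatase clone, to 254 higher and 300 lower. These calls treat each array as a replicate. When the 4 clone changes themselves were taken as the replicates, 2 against 2, limma called 0 probes, with 776 of 15151 at an unadjusted p under 0.05, and an exact two-sided permutation of 2 against 2 clones cannot give a p below 0.333. The calls therefore describe these 4 rescue lines.

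Both kinase clones lay beyond both phosphatase clones on 234 of the 297 called probes, 1.54% of all tested, 141 on the higher side (0.931%) and 93 on the lower (0.614%). Among all tested probes the 2 classes failed to overlap in this way on 33.5%, whatever the size of the gap. Only 22 probes (0.145%) were called in the same direction in each of the 4 comparisons of 1 kinase clone with 1 phosphatase clone, 17 higher and 5 lower. The single comparisons called 295 probes for Bub1b_R minus Ppm1g_R (1.95%), 374 for Bub1b_R minus Ppp2r1b_R (2.47%), 921 for Chek1_R minus Ppm1g_R (6.08%) and 969 for Chek1_R minus Ppp2r1b_R (6.4%). They share clones with one another and are not independent.

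Clones of 1 class also differed from each other. Bub1b_R and Chek1_R differed in their change on 442 probes (2.92%), and Ppm1g_R and Ppp2r1b_R on 775 (5.12%), beside the 295 to 969 of the single comparisons between classes. Dox withdrawal within a clone called 849 probes in Bub1b_R (5.6%), 1404 in Chek1_R (9.27%), 662 in Ppm1g_R (4.37%), 731 in Ppp2r1b_R (4.82%) and 167 in Ctrl_R (1.1%). The class difference leaned on Chek1_R. With Chek1_R as the only kinase clone 717 probes were called and with Bub1b_R alone 150. Of the 195 probes called higher, 176 were also called with Chek1_R alone and 63 with Bub1b_R alone, and 160 rose more in Chek1_R than in Bub1b_R. The plot of the change in the kinase class against that in the phosphatase class shows where the named genes lie.

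**Figure D1:**
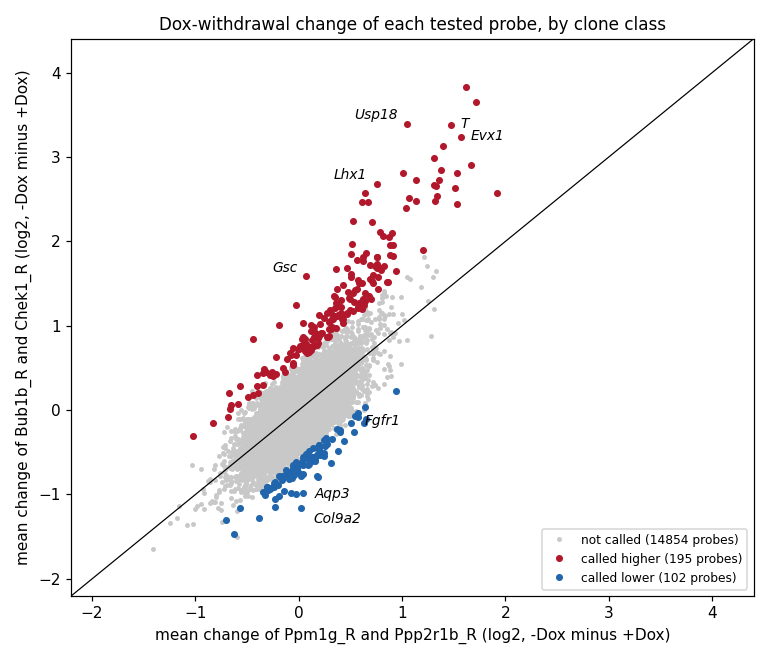
Mean Dox-withdrawal change of the kinase clones (y axis, log2) against that of the phosphatase clones (x axis, log2) for all 15151 probes tested, 1 point per probe, with called probes coloured and 8 genes named. The 195 probes called higher lie above the diagonal of equal change and the 102 called lower lie below it.

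The probes called higher had larger positive changes in the kinase clones than in the phosphatase clones. Their median change was 0.92 in Bub1b_R and 1.58 in Chek1_R against 0.24 in Ppm1g_R and 0.48 in Ppp2r1b_R, with 0.08 in Ctrl_R, and 128 of the 195 had a change above 0 in all 4 clones. The probes called lower had negative changes in the kinase clones and changes near 0 in the others. Their medians were -0.51, -0.84, 0.04 and 0.01 in the same order, and 21 of the 102 had changes below 0 in both kinase clones and above 0 in both phosphatase clones.

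Genes of the primitive streak and early mesoderm were the main developmental group on the higher side. Of 31 tested, 18 were called higher and 0 lower, with a median class difference of 0.75, beside 163 higher and 83 lower among all 11163 genes tested (2.2%) and a median of 0.00. Without background correction the list had 13 higher and 1 lower. With Chek1_R as the only kinase clone 20 members were called and with Bub1b_R alone 11. In 17 of the 18 both kinase clones lay above both phosphatase clones. The list's median change was 1.22 in Bub1b_R, 1.48 in Chek1_R, 0.74 in Ppm1g_R and 0.40 in Ppp2r1b_R, against 0.11 in Ctrl_R. The list was written with earlier results of these data known, and its counts are a description. Bulk RNA cannot separate a larger share of cells expressing these genes from more RNA of each gene per cell.

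T, the T-box factor that specifies mesoderm, read 9.37, 9.44 and 9.43 with Dox and 11.69, 11.75 and 11.73 without it in Bub1b_R, and 6.60, 6.47 and 6.17 against 10.94, 10.79 and 10.84 in Chek1_R. In Ppm1g_R it went from 9.30, 9.37 and 9.41 to 10.47, 10.41 and 10.34, and in Ppp2r1b_R from 7.98, 7.88 and 7.85 to 9.78, 9.95 and 9.69. Every -Dox array was above every +Dox array of its clone, and the rises of 2.31 and 4.44 in the kinase clones exceeded those of 1.05 and 1.90 in the phosphatase clones. The class difference of 1.90 ± 0.11 (SE, 3 arrays per condition) had an adjusted p of 1.54e-11 in limma. Ctrl_R rose by 0.75, from 5.41, 5.56 and 6.00 to 6.46, 6.40 and 6.35.

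Lhx1, a LIM homeobox factor of the streak and node, was not above background on any +Dox array of the 4 clones. Without Dox it read 8.04, 7.65 and 8.06 in Bub1b_R and 7.34, 7.38 and 7.28 in Chek1_R, against 6.22, 5.75 and 5.66 in Ppm1g_R and 5.44, 5.12 and 5.33 in Ppp2r1b_R, where it stayed below background. The kinase and phosphatase arrays did not overlap after withdrawal. The rise was at least 5.45-fold in Bub1b_R, at least 3.37-fold in Chek1_R and at least 1.21-fold in Ppm1g_R, and the fitted class difference was 1.93 ± 0.15 (adjusted p 2.74e-09, limma). Mesp1, a basic helix-loop-helix factor of the earliest cardiac mesoderm, read 8.14, 7.92 and 7.87 in Bub1b_R and 7.21, 7.49 and 7.43 in Chek1_R without Dox. It read 5.89, 5.90 and 6.21 in Ppm1g_R and 5.18, 5.21 and 5.27 in Ppp2r1b_R, not above background there, all below the kinase arrays, and its fitted class difference was 1.86 ± 0.11 (adjusted p 3.35e-11).

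Gsc, the homeobox gene of the organizer region, separated the classes on every array after withdrawal. With Dox it read 7.29, 7.34 and 7.21 in Bub1b_R, 6.66, 6.36 and 6.53 in Chek1_R, 7.20, 7.07 and 7.26 in Ppm1g_R and 6.62, 6.84 and 6.93 in Ppp2r1b_R. Without Dox it read 8.77, 8.56 and 8.57, then 8.41, 8.36 and 8.24, then 7.45, 7.41 and 7.72, and last 6.38, 6.60 and 6.80. All 6 kinase arrays were above all 6 phosphatase arrays after withdrawal, with no such gap before it, and the changes were 1.35 and 1.82 against 0.35 and -0.20 (class difference 1.51 ± 0.10, adjusted p 4e-10). Mixl1, a homeobox gene of the streak, rose by 3.24 in Bub1b_R, at least 3.67-fold in Chek1_R and at least 3.42-fold in Ppm1g_R, and was not above background in either condition of Ppp2r1b_R, so that 1 phosphatase clone showed a rise and the other no detected level (fitted class difference 1.68 ± 0.11, adjusted p 6.65e-11). Evx1, a homeobox gene of the posterior streak, rose in all 4 clones, by 2.38 and 4.10 against 1.60 and 1.54 (class difference 1.67 ± 0.14, adjusted p 1.31e-08). With Bub1b_R as the only kinase clone the difference from the phosphatase clones was 0.83 for T, 1.28 for Gsc, 1.93 for Mixl1 and 0.76 for Sp5, all called, and 0.28 for Wnt5a, 0.49 for Fgf5 and 0.36 for Cdx2, none of them called.

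**Figure D2:**
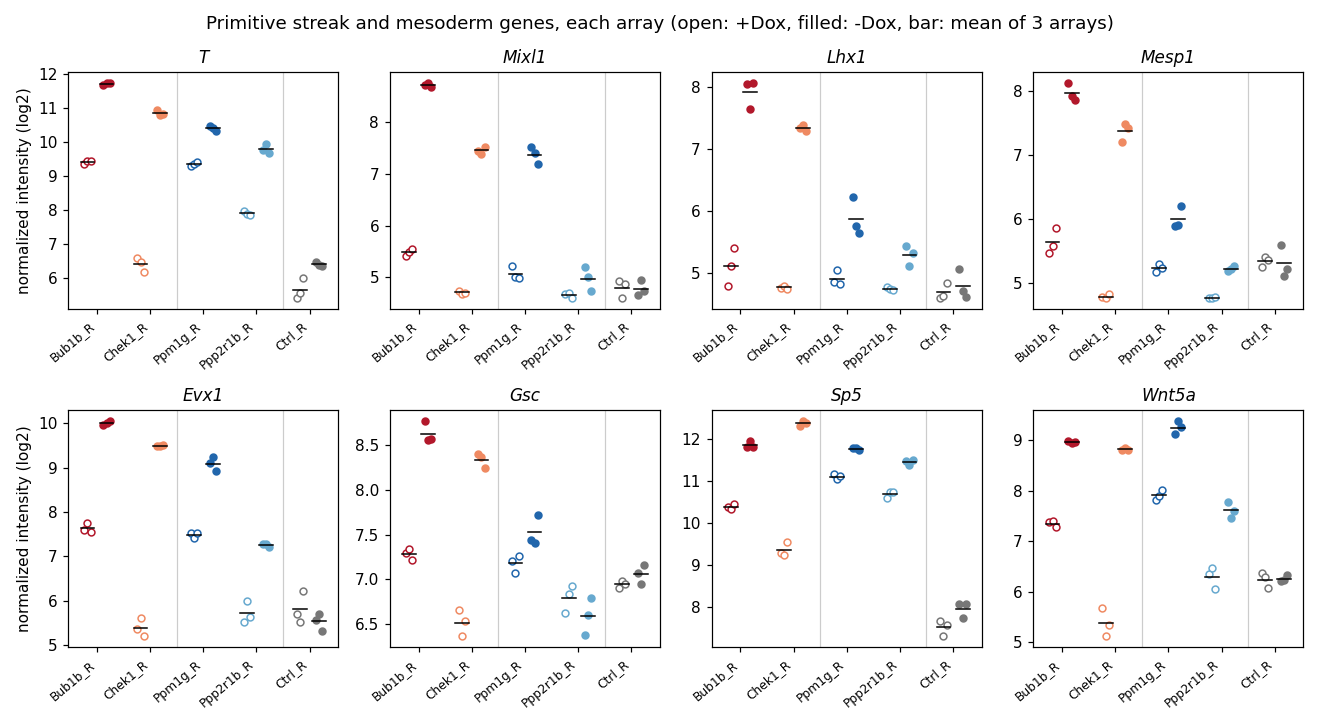
Log2 intensity of streak genes on each array, by clone, with Dox (open) and without Dox (filled), and bars at the mean of the 3 arrays. Without Dox, Lhx1, Mesp1 and Gsc lie higher on the arrays of both kinase clones than on those of both phosphatase clones, whereas the Ppm1g_R arrays of Mixl1 lie beside those of Chek1_R.

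Other members of the list were not called. Tbx6, a T-box factor of presomitic mesoderm, had a class difference of -0.31. Kdr, the VEGF receptor of the haemangioblast, and Dll3, a Notch ligand of the presomitic mesoderm, each had -0.36. Kdr was not above background on any array of Chek1_R, Ppm1g_R or Ppp2r1b_R, and Dll3 on no array of either kinase clone. The values of Kdr and Dll3 are therefore fitted ones near background. Bmp4, the ligand that patterns posterior mesoderm, had 0.45 and Cyp26a1, which degrades retinoic acid, 0.54, both under the size required.

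Part of the class difference lay in the starting level. It equals the gap between the classes without Dox minus the gap with Dox. For Gsc, detected on every array, these gaps were 1.43 and -0.09, so nearly all of its difference was present after withdrawal. Lhx1 and Mesp1 had few or no detected +Dox arrays in most clones, which leaves their starting gap unmeasured. For T they were 1.18 and -0.72, for Sp5 0.51 and -1.02, and for Wnt5a 0.46 and -0.74, with a kinase class that began lower. Over the 195 probes called higher the median gap was 0.47 without Dox and -0.41 with Dox. Chek1_R had the lowest +Dox mean of the 4 clones on 138 of these 195 (70.8%), and on 15.1% of all probes tested. Over the 102 probes called lower the median gap was -0.30 without Dox and 0.36 with Dox. Chek1_R had the highest +Dox mean on 41 of these 102 (40.2%), and on 16.2% of all probes tested. The calls were made on the same arrays, so these shares carry no test.

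Among the signals that drive the streak program some members were called and list medians lay near 0. In the list of Wnt targets and feedback genes 6 of 24 were called higher and 0 lower (25%), with a list median of 0.14. The shares called were 23.5% for the Nodal, 20% for the FGF and 21.4% for the BMP list, beside 2.2% of all genes tested. These lists share members with others, so their shares count some genes again. T, Sp5, Wnt3, Gsc, Lefty2 and Fgf8 also stand in the streak list, and Lef1 and Fgf5 in the list of epiblast genes. The Wnt genes called were T, Sp5, a zinc-finger factor induced directly by β-catenin (class difference 1.52 ± 0.10, adjusted p 6.65e-11, with changes of 1.47, 3.0, 0.66 and 0.76 in Bub1b_R, Chek1_R, Ppm1g_R and Ppp2r1b_R), the ligands Wnt3 (0.93) and Wnt6 (0.69), the feedback inhibitor Axin2 (0.82) and the effector Lef1 (0.75). Wnt5a, a ligand of noncanonical signalling, rose in all 4 clones, by 1.62 and 3.45 in the kinase clones and by 1.34 and 1.33 in the phosphatase clones (1.20 ± 0.12, adjusted p 9.01e-08). Of 17 Nodal and activin pathway genes 4 were called higher, among them Gsc, the activin-binding antagonist Fst (1.37) and the Nodal antagonist Lefty2 (0.84), while Nodal itself had 0.03 and the list median was -0.03. Of 20 FGF and ERK genes Fgf8 (1.44), Fgf5 (1.22) and the phosphatase Dusp4 (0.66) were called higher and the receptor Fgfr1 lower. Among 14 BMP targets Msx1 (1.36) and the antagonist Nog (1.01) were higher and Id2 was lower. Fgf10, an FGF ligand of early mesenchyme, and Rspo3, which amplifies Wnt signalling, were chosen after their values were seen and had class differences of 1.35 and 1.28. For Fgf8, Wnt6, Nog and Rspo3 the 2 classes overlapped. Lef1, Fst and Rspo3 were not above background on any +Dox array of Chek1_R, and Lef1 on no array of Ppp2r1b_R. Their class differences are fitted values.

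Posterior genes of the Hox and Cdx families followed Chek1_R. Of 22 tested, 21 had a positive class difference and 6 were called higher (27.3%), with a list median of 0.23, whereas among all 11163 genes 5649 were positive and 2.2% called. Cdx2, the caudal-type regulator of posterior Hox genes, had 1.48 ± 0.15 (adjusted p 1.23e-07), Hoxc9 1.04, Hoxd9 0.95, Hoxc6 0.89, Hoxd8 0.70 and Hoxd10 0.65. With Chek1_R as the only kinase clone 9 of the 22 were called, with Bub1b_R alone 0, and in only 1 called member did both kinase clones lie above both phosphatase clones. With Bub1b_R alone Hoxc6 had -0.47 in place of 0.89, Hoxc9 -0.10 and Hoxd8 -0.031. The difference between the 2 kinase clones was -2.70 for Hoxc6. On the arrays labelled Chek1_R that gene read 5.38, 5.49 and 5.55 with Dox, not above background, and 8.51, 8.58 and 8.52 without it. In Bub1b_R it read 8.19, 8.26 and 8.21 with Dox and 8.72, 8.59 and 8.43 without it. The clones ended at like levels, while the start in Chek1_R lay below detection.

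Pluripotency genes differed little between the classes. None of 18 core pluripotency genes was called, and their median was -0.07. Nanog, the homeobox factor of the naive state, had a class difference of 0.10 ± 0.10 (adjusted p 0.597) with changes under 0.5 in each clone, Sox2 had -0.11, and Pou5f1, which encodes Oct4, 0.27 ± 0.09 (adjusted p 0.0483), which is under 1.5-fold. Of 19 naive genes only Gbx2 was called (0.78), on overlapping classes, and Zfp42 (0.23), Esrrb (0.18) and Klf4 (0.25) were not. In the list of formative and primed epiblast genes 3 of 14 were called higher, Fgf5, Zic2 (0.84) and Lef1. Fgf5, the standard marker of the primed epiblast, rose from 7.98, 8.25 and 8.16 to 9.01, 9.09 and 9.14 in Bub1b_R and from 5.48, 5.93 and 5.94 to 8.29, 8.04 and 8.27 in Chek1_R. In Ppm1g_R it went from 6.56, 6.41 and 6.16 to 6.83, 6.50 and 6.89, and in Ppp2r1b_R from 6.84, 6.76 and 6.54 to 7.29, 7.32 and 7.22. The kinase clones changed more, and only in Ppm1g_R did the conditions overlap (class difference 1.22 ± 0.13, adjusted p 6.95e-07).

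Lists of other lineages had few calls and medians near 0, although their shares of calls exceeded the 2.2% of all genes tested. Endoderm genes had 1 called higher and 1 lower of 18 (11.1%, median 0.01), genes of the epithelial to mesenchymal transition 2 higher of 23 (8.7%, median 0.09) and trophoblast genes 2 higher of 14 (14.3%, median 0.06). Both trophoblast genes, Cdx2 and Eomes (0.92), also mark the streak and stand in that list too. Eomes was not above background with Dox in either kinase clone or in either condition of Ppp2r1b_R, so its value is a fitted one. Of 17 germline genes 1 was called lower, and of 22 fibroblast genes 1 was called higher.

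**Figure D3:**
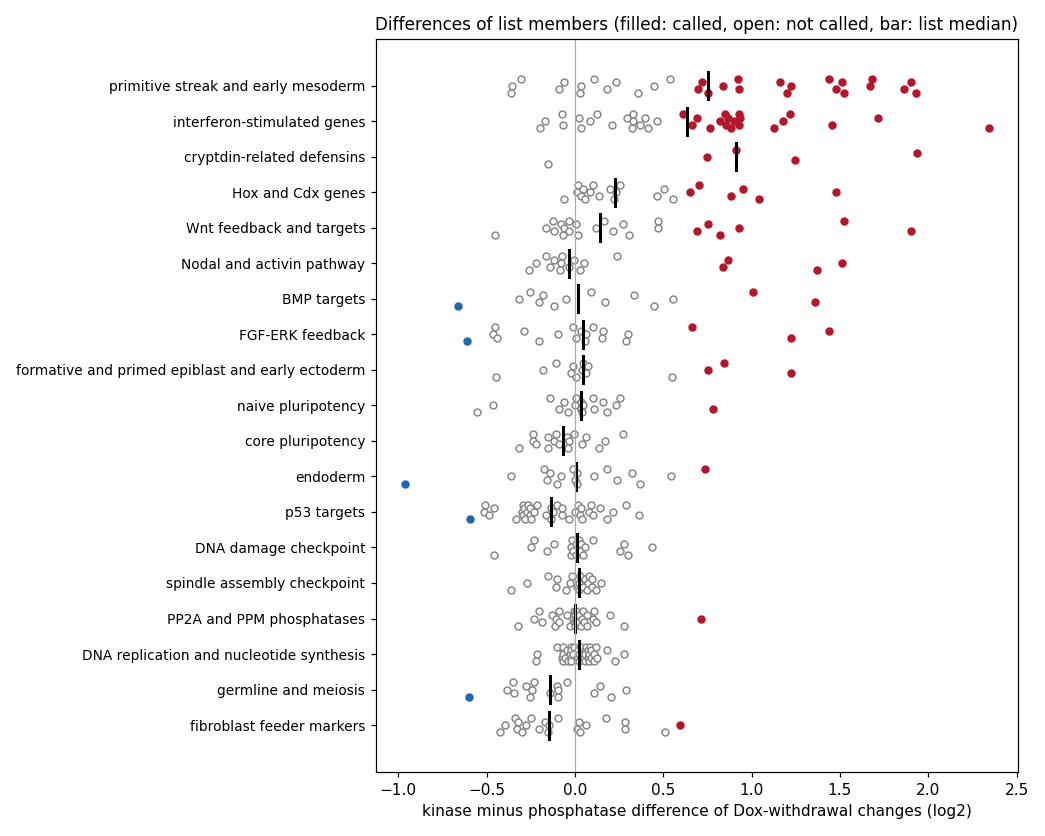
Class difference (x axis, log2) of every tested member of each gene list (y axis), with called members coloured and a bar at the list median. The medians of the streak list (0.75) and of the interferon-stimulated genes (0.64) lie away from 0, whereas those of the core pluripotency (-0.07) and p53 target (-0.14) lists lie near it.

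A second group on the higher side did not belong to development. Interferon-stimulated genes encode antiviral proteins that cells induce in response to interferons. The list of these genes was written after the values were seen, so its counts are a description. Of 36 tested, 19 were called higher and 0 lower (52.8%, beside 2.2% of all genes tested), with a median of 0.64. The group followed single clones more than classes. Its median change was 0.49 in Bub1b_R, 1.55 in Chek1_R, 0.11 in Ppm1g_R and 0.57 in Ppp2r1b_R. Both kinase clones lay above both phosphatase clones on 10 of the 19, 25 members were called with Chek1_R alone and 4 with Bub1b_R alone, and 23 members were called in the difference between the 2 kinase clones.

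Usp18, which removes ISG15 from proteins and damps interferon signalling, was also named after its value was seen. It read 5.13, 4.89 and 5.21 with Dox on the arrays labelled Chek1_R, not above background, and 10.23, 10.37 and 10.32 without it, a rise of at least 26.5-fold. Bub1b_R went from 6.27, 6.80 and 6.80 to 8.15, 8.12 and 8.25, and Ppp2r1b_R from 7.05, 6.63 and 7.05 to 8.88, 8.88 and 8.84. In Ppm1g_R it read 8.45, 8.67 and 8.50 with Dox and 8.68, 8.58 and 8.78 without it, so its +Dox arrays already lay within the range of 8.12 to 8.88 that Bub1b_R and Ppp2r1b_R reached. The fitted changes of 1.55, 5.23, 0.14 and 1.96 overlap between the classes. The class difference of 2.34 ± 0.13 (adjusted p 4.9e-12, limma) rests on Chek1_R, since with Bub1b_R as the only kinase clone it was 0.50.

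The transcript listed as D12Ertd647e, which RefSeq gives as an older name of the interferon-inducible gene Ifi27 (a symbol another probe also carries), changed in opposite directions within the phosphatase class. It went from 9.33, 9.14 and 9.05 to 8.85, 8.83 and 8.80 in Ppm1g_R and from 7.74, 7.64 and 7.73 to 9.38, 9.37 and 9.41 in Ppp2r1b_R. The kinase clones both rose, from 7.07, 7.12 and 7.23 to 8.31, 8.33 and 8.24 in Bub1b_R and from 6.38, 6.06 and 6.06 to 10.06, 9.93 and 9.88 in Chek1_R (class difference 1.80 ± 0.09, adjusted p 2.24e-12). Oasl2, a member of the oligoadenylate synthetase family, had 1.46 ± 0.15, on overlapping classes. LOC100038882, whose gene ID RefSeq gives to Isg15, had 1.72 ± 0.20 with both kinase clones above both phosphatase clones. Over the 36 genes the median gap between the classes was -0.41 with Dox and 0.19 without it, and Chek1_R was the lowest clone with Dox on 52.8% of them.

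**Figure D4:**
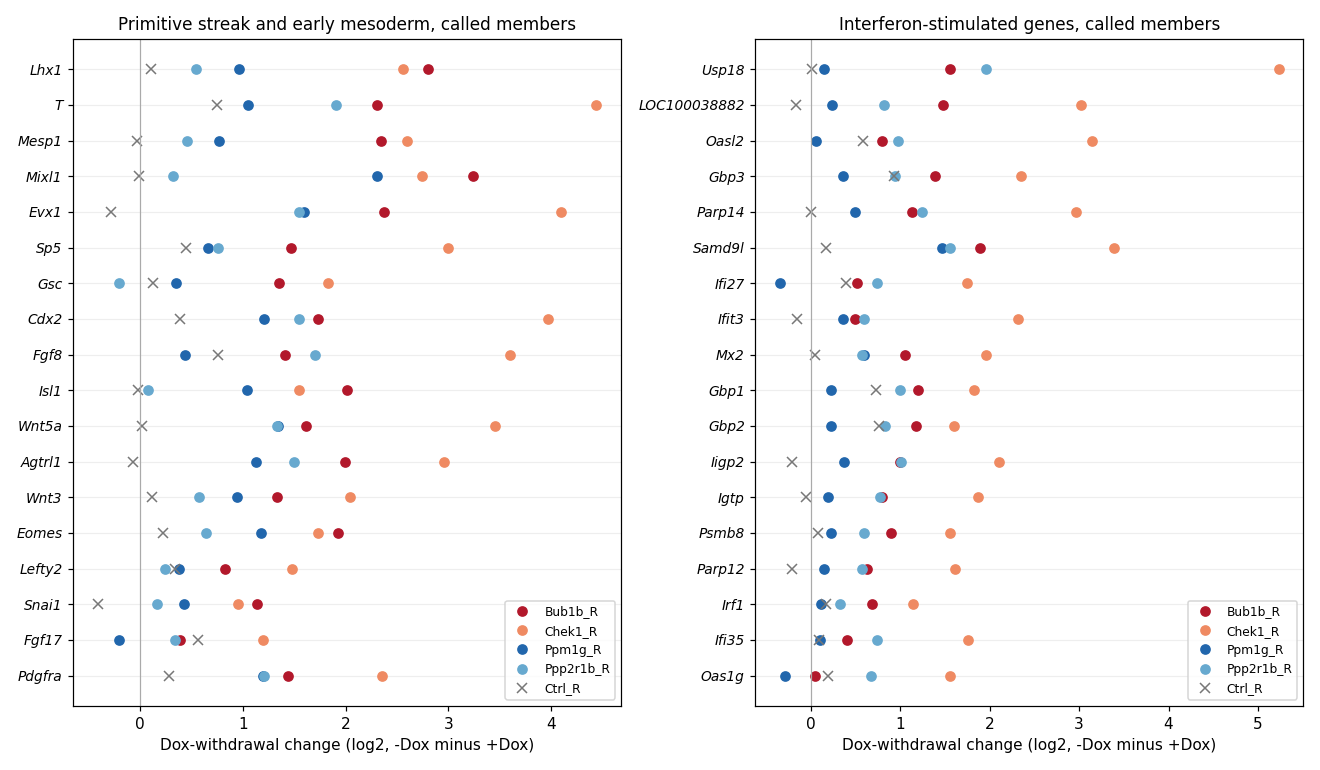
Dox-withdrawal change (x axis, log2) of the called streak genes (left) and of called interferon-stimulated genes (right, 1 of the 19 not drawn) in each of the 5 clones, 1 point per clone at the mean of 3 arrays without minus the mean of 3 with Dox. Chek1_R lies farthest to the right for every interferon-stimulated gene drawn and for 13 of the 18 streak genes, whereas for the other 5 streak genes Bub1b_R does.

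Promoters of these members were searched for the interferon-stimulated response element in the form GAAANNGAAA, on both strands of the promoter stretch that RefSeq coordinates give around each start (GRCm38.p6, 300 bases, most of them before the start). It was present in 13 of the 25 interferon-stimulated genes with a promoter in the table (52%), in 6 of the 12 that were called higher (50%) and in 1131 of all 32851 promoters (3.44%). The streak list held it in 1 of 22. The stretches of the 6 called genes show how the match sits in each, with capitals marking the motif, which appears as TTTC and TTTC around a pair of bases where it lies on the other strand.
Isg15, chr4:156200871-156200900, minus strand: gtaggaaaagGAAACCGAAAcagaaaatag
Gbp2, chr3:142620594-142620623, plus strand: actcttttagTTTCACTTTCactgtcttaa
Gbp3, chr3:142559989-142560018, plus strand: caggacacagTTTCAGTTTCtatttcccag
Ifit3, chr19:34583397-34583426, plus strand: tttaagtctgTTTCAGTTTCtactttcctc
Igtp, chr11:58199512-58199541, plus strand: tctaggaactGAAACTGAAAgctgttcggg
Oas1g, chr5:120887606-120887635, minus strand: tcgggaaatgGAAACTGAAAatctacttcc

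The TCF/LEF site in the form CTTTGAT, read by the effectors of Wnt signalling, was searched in the same windows and on both strands. It was present in 2 of 12 streak genes called higher with a promoter in the table (16.7%), in 3 of the 22 tested (13.6%) and in 1225 of all promoters (3.73%). The matching stretches of called genes belong to Mesp1 and Sp5, whose values are given above, with the site in capitals. A match is a description of these letters, and binding was not measured here.
Mesp1, chr7:79793602-79793631, minus strand: ctcgagccggCTTTGATatgctgatgaatt
Sp5, chr2:70474809-70474838, plus strand: gcaaggccccCTTTGATcaggaaaatccaa

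Cryptdin-related defensin genes, a family of near-identical copies that encode antimicrobial peptides of intestinal Paneth cells, had 4 of 5 tested called higher (80%, beside 2.2% of all genes). Chek1_R had the largest change in all 4, 1 of them had the classes apart, and 0 were called with Bub1b_R as the only kinase clone. Their probes may read one another's transcripts. Defcr-rs7 read 5.50, 5.13 and 5.11 with Dox on the arrays labelled Chek1_R, not above background, and 10.69, 10.34 and 10.53 without it, a rise of at least 30.7-fold. It rose by 2.03 in Bub1b_R, 1.39 in Ppm1g_R and 2.03 in Ppp2r1b_R, so the class difference of 1.94 ± 0.13 (adjusted p 3.56e-10) came mostly from Chek1_R, and was 0.32 with Bub1b_R as the only kinase clone. LOC100044289, a transcript named only by a locus number in the file, had the second-largest class difference named here (2.21 ± 0.10, adjusted p 1.78e-13), and it reached 12.31, 12.29 and 12.27 in Chek1_R from 6.63, 6.93 and 6.67. Klhl6, a BTB-kelch protein known from B cells, had 1.79 ± 0.11 and was among the genes called in all 4 comparisons.

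At the 1.5-fold limit fewer probes were lower than higher in the kinase clones. Col9a2, a chain of the cartilage collagen type IX, read 8.87, 9.01 and 8.98 with Dox and 8.00, 7.90 and 8.12 without it in Bub1b_R, and 8.98, 8.76 and 8.82 against 7.34, 7.52 and 7.58 in Chek1_R. In Ppm1g_R it went from 8.22, 8.16 and 8.18 to 8.33, 8.36 and 8.68, and in Ppp2r1b_R from 9.04, 9.11 and 9.06 to 8.92, 8.70 and 8.95. After withdrawal every kinase array lay below every phosphatase array, whereas with Dox they overlapped. The class difference was -1.18 ± 0.09 (adjusted p 1.38e-09, limma).

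Aqp3, a channel for water and glycerol, read 9.31, 9.40 and 9.44 with Dox and 8.72, 8.75 and 8.60 without it in Bub1b_R, and 8.78, 8.77 and 8.78 against 7.54, 7.51 and 7.48 in Chek1_R. It went from 9.16, 9.07 and 8.98 to 8.91, 8.80 and 8.92 in Ppm1g_R and from 9.02, 9.04 and 9.02 to 9.37, 9.26 and 9.27 in Ppp2r1b_R. Both kinase clones fell, whereas Ppm1g_R changed by -0.19 and Ppp2r1b_R by 0.27 (class difference -1.02 ± 0.06, adjusted p 2.18e-11). Aatk, a kinase known from neurons, had -0.98 ± 0.09, and Amn, an epithelial subunit of the cubilin receptor, -0.96 ± 0.09. Further genes in this direction were Dlk2 (-0.94), Foxn4 (-0.92), Tnfrsf25 (-0.91), Tnfrsf13c (-0.89), Csn3 (-0.86) and Dnaic1 (-0.84). Tnfrsf13c and Csn3 were not above background in either condition of Ppm1g_R, nor was Csn3 in Chek1_R without Dox, so their values are fitted ones.

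For Id2 and Fgfr1 the class difference was negative with higher -Dox levels in the phosphatase clones. Fgfr1, the FGF receptor that serves the epiblast and streak, read 6.61, 6.62 and 6.71 with Dox and 6.52, 6.41 and 6.73 without it in Bub1b_R, and 6.35, 6.21 and 6.20 against 6.20, 6.07 and 6.38 in Chek1_R, so these conditions overlapped. It went from 6.39, 6.11 and 6.15 to 6.92, 6.68 and 6.65 in Ppm1g_R and from 6.42, 6.55 and 6.60 to 7.05, 7.26 and 6.93 in Ppp2r1b_R, with no overlap in either (class difference -0.61 ± 0.11, adjusted p 6.24e-04). Id2, an inhibitor of helix-loop-helix factors induced by BMP, changed by 0.25 in Bub1b_R and -0.43 in Chek1_R and by 0.68 and 0.47 in the phosphatase clones (class difference -0.66 ± 0.12, adjusted p 3.67e-04).

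**Figure D5:**
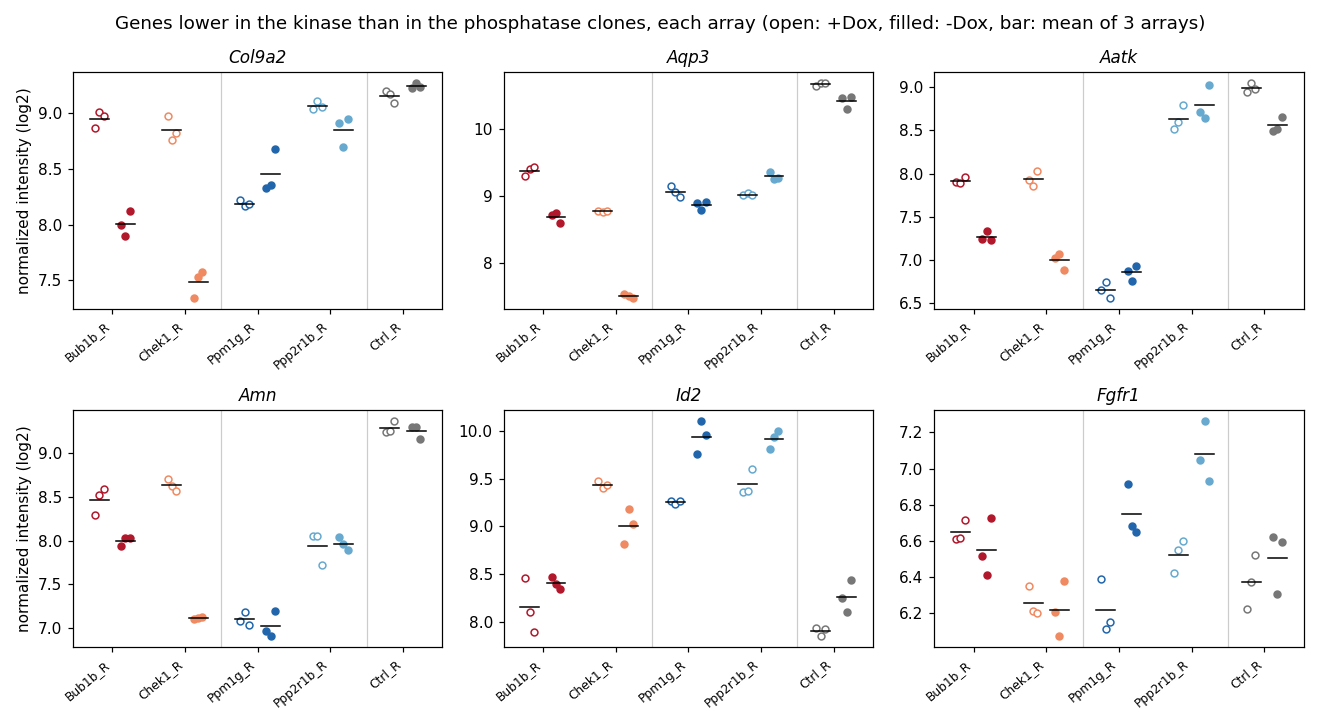
Log2 intensity of genes called lower on each array, by clone, with Dox (open) and without Dox (filled), and bars at the mean of the 3 arrays. Col9a2 and Aqp3 fall in both kinase clones, whereas the -Dox arrays of Fgfr1 lie above the +Dox arrays in both phosphatase clones.

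Genes of the targeted pathways themselves differed little between the classes. None of 22 genes of the DNA damage checkpoint and none of 22 of the spindle assembly checkpoint was called, with medians of 0.01 and 0.02. Of 32 subunits and relatives of PP2A and the PPM phosphatases only the targeted Ppm1g was called (0.71 ± 0.10, adjusted p 4e-05), which is its own fall in Ppm1g_R. Among 39 p53 targets 1 was called, Rb1, the retinoblastoma protein, at -0.59, and the list median was -0.14. Of the 39, 27 had a negative class difference, beside 5514 of all 11163 genes tested. With Chek1_R as the only kinase clone 5 were called, beside 560 of the 11163, and with Bub1b_R alone 0. Cdkn1a, which encodes the inhibitor p21, had 0.14, Mdm2, the ligase that degrades p53, -0.33 and Trp53 itself 0.09. DNA replication and nucleotide synthesis had 0 called of 42, homologous recombination 0 of 21, splicing 0 of 31, the ATF4 stress response 0 of 34, glycolysis 0 of 30 and cholesterol synthesis 0 of 22, with medians between -0.06 and 0.10. Opposite changes within a class cancel in these values. The ATF4 list had 6 members called between the kinase clones and 7 between the phosphatase clones, and the glycolysis list 0 and 8. Among all 11163 genes these comparisons called 355 and 562.

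The 22 probes called in all 4 comparisons stand for differences present in each pair of clones. On the higher side they belonged to Lhx1, Mesp1, Evx1, Sp5, Gsc, Fgf10 with both of its probes, Klhl6, Lmo2, Myl1, Dgkk, Trim67, Rgs5 and Spin2, and, through probes that were not the brightest of their gene, to Wnt5a, Gbp3 and Irgm. The brightest Wnt5a probe, described above, was not called with Bub1b_R alone. On the higher side Lmo2, a LIM-only cofactor of blood and endothelial development, was the member whose 2 classes moved in opposite directions. Its changes were 1.12 and 0.57 in the kinase clones against -0.67 and -0.21 in the phosphatase clones. For Irgm, an interferon-inducible GTPase, 1 probe had a difference of 1.33 while its brightest probe had -0.07, so its probes disagree. On the lower side they belonged to Col9a2, Aatk, Atp9a and Wnt7b and, through a probe that was not the brightest of its gene, to Cd97. Wnt7b, a Wnt ligand, changed by -0.44 in Bub1b_R and -0.42 in Chek1_R and by 0.24 and 0.26 in the phosphatase clones. Of the 19 called interferon-stimulated genes 0 were called in all 4 comparisons by their brightest probe, against 5 of the 18 called streak genes.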

How the data were processed

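Expression was measured on Illumina mouse WG-8 V2 BeadChips, 30 arrays with 3 per clone and condition. The authors deposited 1 table with a summarized, background-subtracted intensity and a detection p-value for 25697 probes on each array. The submitters' processing notes name lumi, and the steps applied are not given in the sources used here. Spreadsheet software had turned 46 detection p-values of Ppm1g_R -Dox replicate 2 and 14 of Bub1b_R -Dox replicate 2 into dates. On the first array 28 were converted back and 18 taken from the probe nearest in signal, and on the second 6 and 8. In addition 32 gene symbols had become dates or numbers, and their probes were tested but not named.

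The deposited intensities were background-corrected with normexp on the detection p-values, given an offset of 16, quantile-normalized over the 30 arrays and taken to log2 (neqc in limma 3.58.1, R 4.3.3). The 15151 probes tested were those that 3 or more arrays detected at p under 0.05. A model with 10 condition means over all 30 arrays was fitted in limma with empirical Bayes moderation (20 residual and 3.38 prior degrees of freedom). A probe was called at a Benjamini-Hochberg adjusted p under 0.05 over all tested probes and at least 1.5-fold. SE is limma's moderated standard error of the contrast over 3 arrays per condition, and the number of arrays limits the precision. Where a condition was detected on none of its arrays, a change given as at least N-fold is a lower bound. It was taken against the higher of the lowest detected signal and the probe's own signal on each array. Class differences, differences between clones and list medians use the fitted changes, also where a condition was undetected. Steps were tested on simulated data.

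The gene lists, 26 of them, and the members compared were chosen with earlier results of these data known, and the interferon-stimulated list, Usp18, Fgf10 and Rspo3 were added after the values were seen. The genes named are the 4 targeted genes, the 10 largest differences in each direction among called probes whose classes did not overlap, members of the lists, and the 5 largest called differences on overlapping classes. The brightest probe stands for a gene. Alternatives were other background corrections, scalings, filters, offsets and fold limits, the replicate block, the methods' t-test, single clones for a class, clones as replicates and leaving out each array. Sequences of shRNA targets came from the study's construct list and promoters from RefSeq (GRCm38.p6).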

Additional observations from a re-analysis of the deposited data

Results flagged for a closer look

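Dox-withdrawal changes that differed between the 2 clones of 1 class stood out, each tested as a limma contrast of the difference itself. Between Bub1b_R and Chek1_R 442 probes were called, and between Ppm1g_R and Ppp2r1b_R 775. The named genes with the largest gaps between the kinase clones rose more on the arrays labelled Chek1_R. The Bub1b_R change minus the Chek1_R change was -3.68 for Usp18, -3.43 for LOC100044289, -3.25 for Defcr-rs7, -2.84 for LOC100048346, -2.70 for Hoxc6 and -2.63 for D12Ertd647e. These are genes of the interferon response, the defensin family and the Hox clusters, and 2 transcripts without a gene name.

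Between the phosphatase clones the gaps ran both ways. The Ppm1g_R change minus the Ppp2r1b_R change was -2.03 for D12Ertd647e, -1.88 for LOC100048346, -1.81 for Usp18 and -1.27 for Fgf8, which rose more in Ppp2r1b_R. It was 1.99 for Mixl1 and 1.48 for Gbx2, whose change was the higher one in Ppm1g_R. Mixl1 was not above background in Ppm1g_R with Dox or in either condition of Ppp2r1b_R, so its gap is a fitted value.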

How the results depend on the processing

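The class difference called 297 probes, 234 of them with the classes apart and 22 in all 4 comparisons, and the within-class comparisons called 442 (kinase) and 775 (phosphatase). An offset of 50 gave 145 and 107, with 286 and 435 within class. A 2-fold limit gave 55, 38 and 5, with 124 and 123 within class, and no fold limit 1579, 1219 and 71, with 895 and 2129. Median scaling raised the count of all 4 comparisons to 37. Clones as the replicates gave 0 and 0. With Chek1_R alone the counts were 717 and 431, with Bub1b_R alone 150 and 117, and with Ppm1g_R or Ppp2r1b_R alone 559 and 554 were called. With Bub1b_R alone 5 named genes changed direction, Hoxc9 (-0.10), Hoxc6 (-0.47), Hoxd8 (-0.031), Ifi35 (-0.012) and Oas1g (-0.14), and they and 48 others of the 80 called named genes lost the call. Of the 297 probes, 226 were still called without background correction, 261 with median scaling and 145 with an offset of 50. The streak list had 13 higher and 1 lower without background correction, 19 higher with median scaling and 17 with an offset of 50. The methods' t-test called 292 after adjustment, and 308 at an unadjusted p under 0.05 and 1.5-fold.

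Leaving out 1 array gave 289 to 318, 225 to 255, 20 to 26, 375 to 454 and 703 to 937 for these 5 counts. Cxcr4 lost its call in 11 of 24 such fits, Hoxd10 in 12, Rb1 in 10, Vim in 9, Smc1b in 7, Fgfr1 in 5 and Oas1g in 4, and the single calls among p53 targets, germline genes and fibroblast genes were lost in some. Labels number the replicates alike in every group, but of 15 same-number pairs of conditions 1 correlated above 0.1 (range -0.084 to 0.131) and 6 correlated best with their own number. With the replicate number as a block 296 probes were called and all 80 called named genes kept their call. Dim probes limit these values, since 72 of the 195 probes called higher had a condition with no detected array, and their fitted changes move with the offset.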
